A study of Drosophila melanogaster with 15 samples.

Results

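The genes described here are 36 neuropeptide and peptide hormone genes of Drosophila melanogaster, chosen by name and measured in the central nervous system (CNS) of late L3 larvae. The array annotation listed a probe set for 30 of the 36, 1 probe set each, out of 11981 genes that had a probe set of their own on the array. The other 6 (AstA, Pburs, Dsk, Hug, Ilp3 and Tk) were not analysed here. Of the 30, 28 passed a filter that required a signal above the array's own median on at least 3 of the 15 arrays. The 2 that did not pass were Ilp8, with signals between 1.68 and 45.2, and Nplp3, with signals between 0.356 and 19.2.

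Each sample was the pooled nervous systems of 15 larvae reared at 25 °C, and each of the 5 groups had 3 arrays. In 4 groups the driver nSyb-Gal4, which uses the promoter of the neuronal synaptobrevin gene, expressed an RNAi construct against a subunit of the mitochondrial respiratory chain or ATP synthase in neurons. The subunits were ND-75 (complex I, line 33910), UQCR-14 (complex III, line 109542), COX5B (complex IV, line 105769) and ATPsynCf6 (complex V, line 107826). The control larvae carried the driver without an RNAi construct (nsybGal4/+ in the sample labels, nSyb-Gal4/w in the design text), so the driver was shared by all 5 groups. Each RNAi group rested on 1 RNAi line. Nothing in the labels says whether the 3 samples of a group came from separate crosses, so the p-values measure only the spread between these samples. RNA from glia, neuroblasts and any attached tissue, in which the driver is not expected to act, was part of every sample.

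Neuropeptides and peptide hormones are cut from larger precursors, often amidated, stored in dense-core vesicles and released to act on receptors, most of them G protein-coupled. In the fly larva many are made in a few large identified neurons, so that a precursor transcript can be abundant in whole-tissue RNA although few cells make it. The insulin-like peptides of the brain, prothoracicotropic hormone and adipokinetic hormone tie the nervous system and the attached ring gland to growth, the timing of metamorphosis and energy stores.

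The transcripts aimed at by the 4 RNAi lines gave no call, each in its own group (0 of 4 by limma; 1 of 4, ND-75, at an unadjusted p under 0.05). The probe set of ND-75 read 305, 196 and 194 in ND-75 RNAi against 335, 387 and 304 in control (log2 difference -0.41 ± 0.19 SE, limma adjusted p = 0.444), and the other 3 differed by -0.14 to 0.05 in their own groups. Of the 15 arrays, 5 had an upper quartile of signal between 167 and 480, against 557 to 646 on the other 10. These were replicate 3 of the ND-75, UQCR-14 and COX5B RNAi groups and of control, and COX5B RNAi replicate 1. The 3′ to 5′ actin ratio, a measure of RNA or amplification quality, was 70.1 on COX5B RNAi replicate 1, 37.4 on ND-75 RNAi replicate 2, 20.1 on ND-75 RNAi replicate 3 and 2.94 to 5.03 elsewhere. The fit gave the 5 arrays weights of 0.0266 to 0.297, against 1.01 to 5.21 for the other 10. The COX5B RNAi group therefore rested mainly on replicate 2, and the ND-75 and UQCR-14 RNAi groups and control on replicates 1 and 2. In fits of the 10 arrays alone, COX5B RNAi was its replicate 2 only. Its p-values there, and those of the mean and of equality, took no spread from that group. All 8 measured pan-neuronal markers (such as elav and Csp) exceeded the array median on all arrays of ND-75 RNAi, ATPsynCf6 RNAi and control, and all but brp did so in the other groups.

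Most of the peptide genes were expressed in the nervous system of control larvae. A signal above the array median on all 3 control arrays was found for 27 of the 30 genes (90.0%), against 45.79% of all 18769 probe sets, and 24 of the 30 exceeded it on all 15 arrays. The 3 below it on a control array were Ilp8, Nplp3 and Nplp2. Ilp8 encodes a hormone that damaged or overgrowing imaginal discs release to delay metamorphosis, and its signal in control was 29.9, 17.0 and 25.3. Ilp2, a main insulin-like peptide of the brain's insulin-producing cells, read 2692, 2803 and 7236 in control, and Ms, the precursor of myosuppressin, which inhibits visceral muscle, read 5022, 5192 and 6235. A probe set's signal depends on its probes, so these levels place a gene above or near background and do not rank genes against each other.

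AstC was the only peptide gene called in the weighted fit, the main one used here. Other ways of processing called further genes, as given below. It encodes the precursor of allatostatin C, a neuropeptide named for the inhibition of juvenile hormone synthesis by its moth counterpart and made in the fly by brain and ventral ganglion neurons. Its signal was 2862, 3508 and 4555 in ATPsynCf6 RNAi, against 1457, 2171 and 1289 in control. All 3 ATPsynCf6 RNAi arrays lay above all 3 control arrays. AstC rose 2.14-fold in this group (log2 difference 1.10 ± 0.19 SE, 95% interval 0.71 to 1.49, limma adjusted p = 0.00109). In UQCR-14 RNAi the signal was 3612, 3497 and 884, so that replicates 1 and 2 lay above every control array and replicate 3 lay below all of them. The weighted fit gave a 2.03-fold rise there (1.02 ± 0.25, 95% interval 0.51 to 1.54, adjusted p = 0.0228). COX5B RNAi read 12210, 3917 and 1905, which overlapped the control range through replicate 3, and the estimate was similar in size but less certain (1.01 ± 0.40, 95% interval 0.18 to 1.84, adjusted p = 0.750). ND-75 RNAi read 2126, 2091 and 1413, within the control range on every array (0.29 ± 0.24, 95% interval -0.22 to 0.81, adjusted p = 0.810). The mean of the 4 RNAi groups was higher than control by 0.86 ± 0.19 (adjusted p = 0.0128). A test of whether the 4 RNAi groups were equal did not pass for AstC (adjusted p = 0.229), nor did it with the 10 arrays of higher upper quartile alone (0.0750). This test passed with quantile normalization (0.00472) and with a model term for the 4 replicate 3 arrays of low weight (0.0427). In whole-tissue RNA, more AstC per cell and more cells that express AstC cannot be told apart.

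The AstC calls depended on the weight given to the arrays of low upper quartile. Without array weights the ATPsynCf6 RNAi difference was 1.15 and the UQCR-14 RNAi difference 0.48, and neither passed (adjusted p = 1.00 for each). With the 10 arrays of higher upper quartile alone, unweighted, AstC was higher by 1.00 in ATPsynCf6 RNAi (adjusted p = 0.0138), by 0.99 in UQCR-14 RNAi (adjusted p = 0.0198) and by 0.24 in ND-75 RNAi (adjusted p = 0.661). In COX5B RNAi, where replicate 2 was the only array, it was higher by 1.13. Weights were estimated anew each time 1 array was left out, here and below. The 2 arrays left in that group then had equal weight, so an array of low upper quartile among them counted as much as the other. A call that ended in such a fit cannot be said to rest on the array left out. The ATPsynCf6 RNAi call ended without control replicate 1 (adjusted p = 0.871) or control replicate 2 (0.797). The UQCR-14 RNAi call also ended without control replicate 1 (0.683), control replicate 2 (0.696) and control replicate 3 (0.0506), and without UQCR-14 RNAi replicate 1 or 2, where the estimates were 0.06 (0.983) and 0.08 (0.973). With no filter on low signals its adjusted p was 0.0502. For the mean of the 4 groups the call ended without ND-75 RNAi replicate 1 (0.0706) or 2 (0.0694), UQCR-14 RNAi replicate 1 (0.401) or 2 (0.354), COX5B RNAi replicate 2 (0.355) or 3 (0.368), and control replicate 1 (0.890) or 2 (0.842).

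Some neuronal markers moved in the same comparisons. Syn, which encodes the synaptic vesicle protein synapsin, rose by 1.15 in ATPsynCf6 RNAi (adjusted p = 0.00115) and by 1.23 in UQCR-14 RNAi (adjusted p = 0.00995), while nSyb, whose promoter drives the Gal4, fell by 0.95 in UQCR-14 RNAi (adjusted p = 0.00960). The UQCR-14 RNAi estimate of Syn was -0.09 without replicate 1 of that group and -0.25 without replicate 2. The nSyb call there ended without the same replicate 1 (adjusted p = 0.841) or 2 (0.773). In these fits UQCR-14 RNAi replicate 3 had as much weight as the other array left in the group. The dimmer probe set of cpx, which encodes the synaptic protein complexin, passed as lower in ND-75 and UQCR-14 RNAi and for the mean. The brighter one gave no call in them. With 1 array left out in turn, the dimmer one differed by -1.25 to -0.57, -1.37 to -0.67 and -0.93 to -0.52 in that order. The summed signal of the 8 pan-neuronal markers was 30700 to 35210 in ATPsynCf6 RNAi and 13960 to 32460 in UQCR-14 RNAi, against 23510 to 34100 in control. The part of these markers in the AstC result was not tested. AstCC, a paralogue that lies next to AstC in the RefSeq annotation, did not pass in any comparison; its log2 differences were -0.63, 0.02, -0.24 and -0.52 for ND-75, UQCR-14, COX5B and ATPsynCf6.

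**Figure D1:**
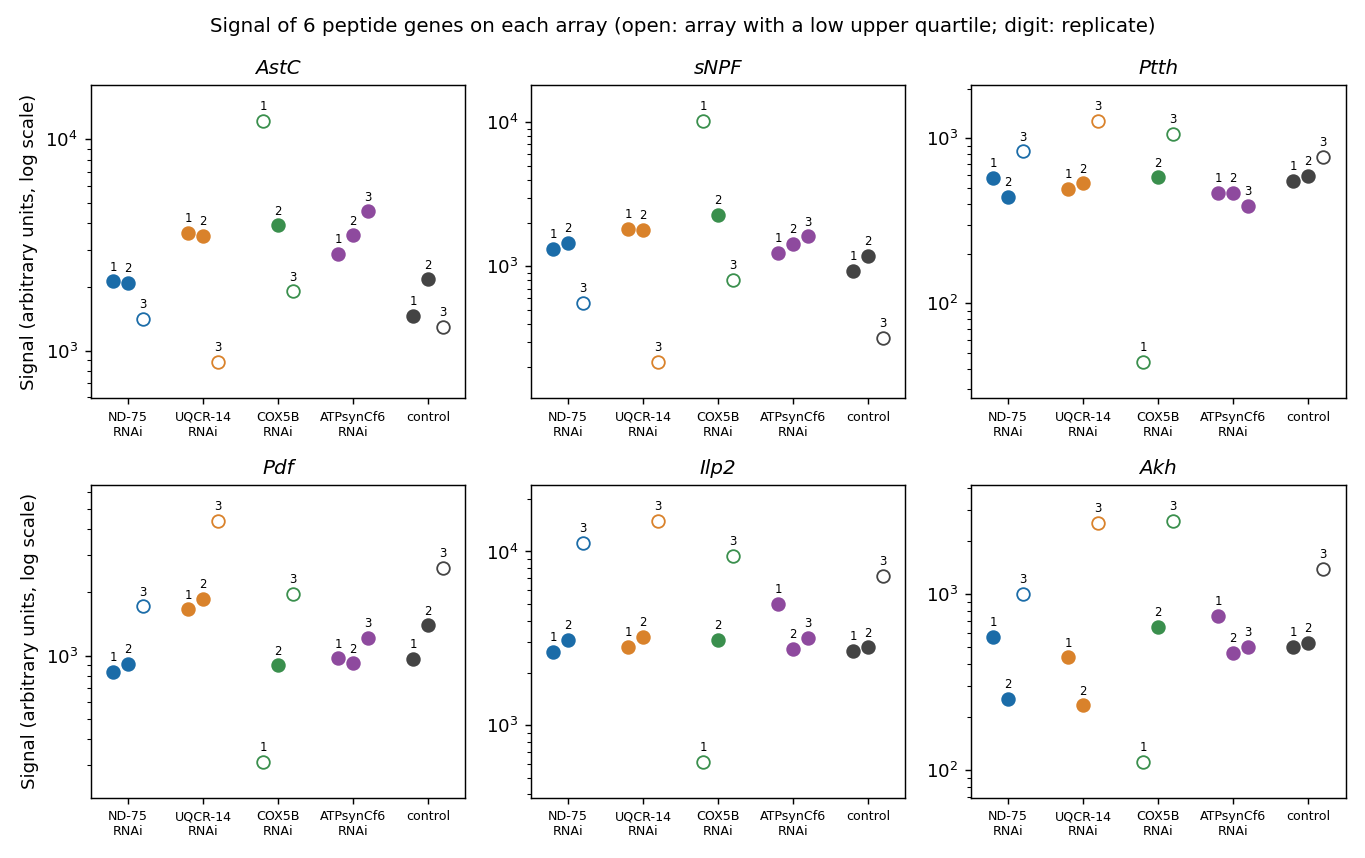
Signal (arbitrary units, log scale) of AstC, sNPF, Ptth, Pdf, Ilp2 and Akh on each of the 15 arrays, by group, with the replicate number above each point; open circles mark the 5 arrays with a low upper quartile and no mean or error is drawn. AstC in ATPsynCf6 RNAi (2862 to 4555) lay above control (1289 to 2171), while Ilp2 and Akh were set apart mainly by the replicate 3 arrays of 4 groups.

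Counted over all 28 peptide genes, AstC made up every call of the weighted fit. By limma with Benjamini-Hochberg adjustment, 0 of 28 passed for ND-75 RNAi (1.57% of the 10340 probe sets tested passed), 1 of 28 for UQCR-14 RNAi (4.47%), 0 of 28 for COX5B RNAi (0.203%) and 1 of 28 for ATPsynCf6 RNAi (6.91%). For the mean of the 4 RNAi groups it was 1 of 28 (3.99%), and for the test of equality among the RNAi groups 0 of 28 (2.72%). These shares were near the background of the array. At an unadjusted p under 0.05 the counts were 3, 5, 2 and 4 in the 4 groups in the order above, 3 for their mean and 4 for equality. The share of all probe sets at the unadjusted threshold is not given here. Counts at that threshold, here and elsewhere, therefore cannot be set against the array and are not read as a result. The 4 comparisons share the control arrays. With the 10 arrays alone, unweighted, the calls in the same order were 0 of 28 (1.69% of all probe sets tested), 2 (4.59%), 1 (1.24%) and 1 (3.22%), with 2 for the mean (3.12%) and 2 for equality (4.4%). The split of higher and lower calls depended on the scaling. With each array centred on its median, 3 genes were higher (4.57% of all probe sets tested) and 8 lower (25.4%) for UQCR-14, a scaling that moved the median of all probe sets there to -0.24 with 24.73% of them above 0. With quantile normalization 4 were higher (12.1%) and 4 lower (11.4%) for COX5B. The median log2 difference of the 28 genes was -0.06, 0.00, 0.13 and 0.13 in the 4 groups, against -0.01, -0.02, -0.01 and 0.00 over all probe sets tested. Without overlap between the 3 RNAi and 3 control arrays were 3 genes for ATPsynCf6 (15.2% of all probe sets tested), of which AstC and sNPF were higher (8.95%) and Ptth lower (6.26%). There were 0 for ND-75 (7.67%), 0 for UQCR-14 (7.17%) and 0 for COX5B (7.4%).

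A p that misses the threshold does not show that a gene kept its level, so the intervals set what could have been seen. The 95% interval of the log2 difference lay within -1 to 1, less than a doubling or halving, for 24 of the 28 genes with ND-75 RNAi, 22 with UQCR-14 RNAi, 13 with COX5B RNAi and 26 with ATPsynCf6 RNAi. Its median distance from estimate to bound was 0.51, 0.52, 0.83 and 0.39 in the same order. COX5B RNAi, with 1 array of full weight, thus had the widest intervals of the 4 groups.

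**Figure D2:**
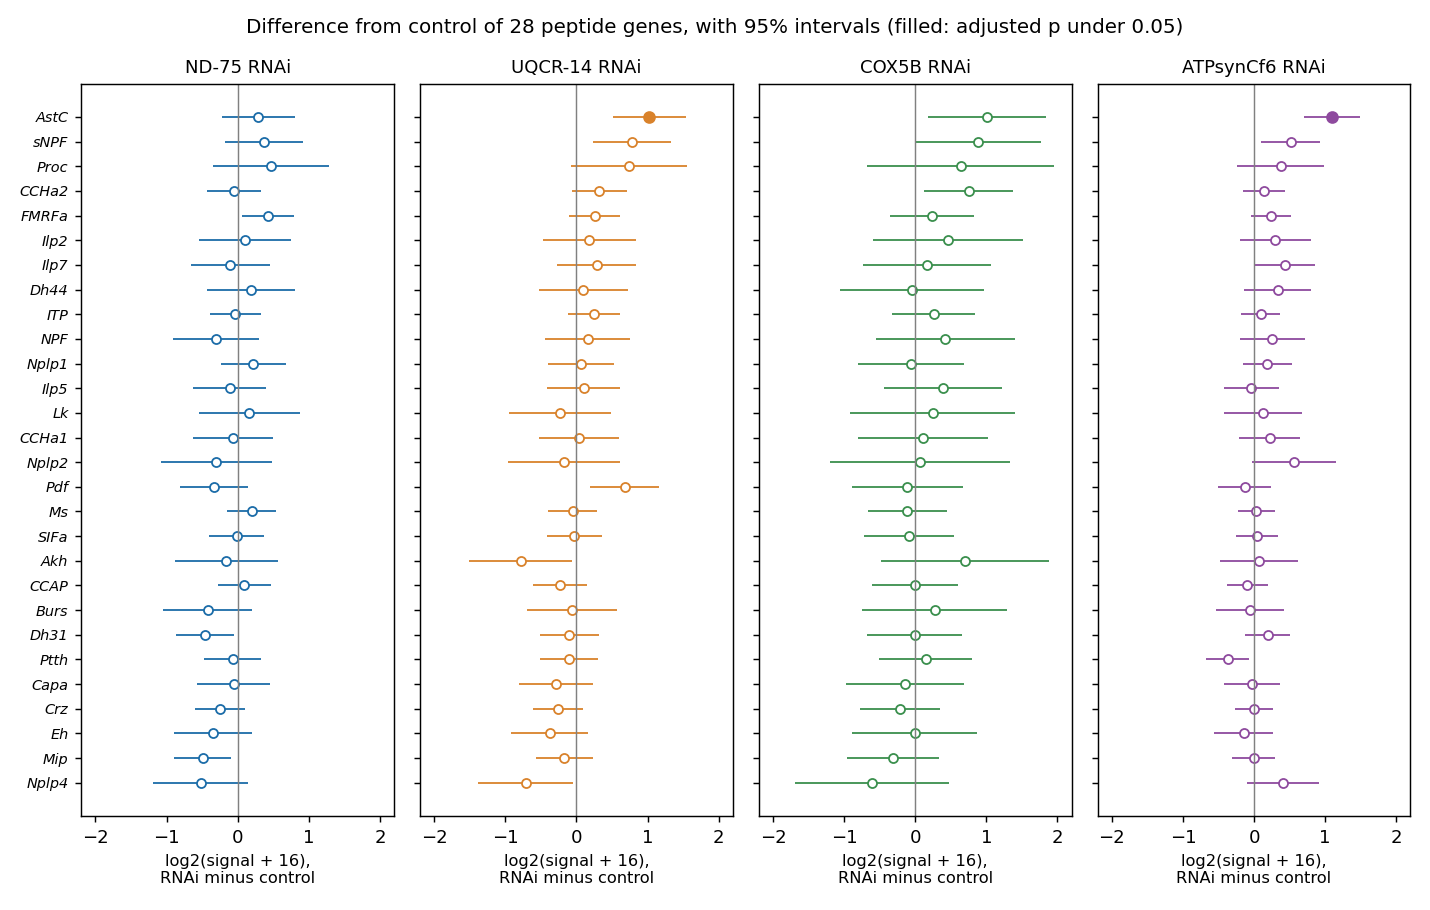
Log2(signal + 16) difference from control of the 28 peptide genes in each RNAi group (x axis, log2 units), with 95% intervals from the weighted limma fit; genes are ordered by the mean of the 4 RNAi groups and filled points have an adjusted p under 0.05. Only AstC in UQCR-14 RNAi (1.02) and ATPsynCf6 RNAi (1.10) is filled, and the COX5B RNAi intervals are the widest.

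Among the other brain peptides, sNPF had the next largest mean difference. It encodes short neuropeptide F, which promotes feeding and growth and is a co-transmitter of many central neurons. Its signal was 1243, 1430 and 1611 in ATPsynCf6 RNAi, 1814, 1792 and 218 in UQCR-14 RNAi, 10170, 2264 and 802 in COX5B RNAi and 1323, 1445 and 558 in ND-75 RNAi, against 935, 1189 and 320 in control. Within each group the replicate 3 array was the lowest except in ATPsynCf6 RNAi, and the replicate 1 and 2 values of every RNAi group lay above all 3 control arrays. The log2 differences were 0.52 ± 0.20, 0.79 ± 0.26, 0.88 ± 0.42 and 0.37 ± 0.26 in that order of groups, and none passed (adjusted p = 0.137, 0.102, 0.957 and 0.729). The mean of the 4 groups was higher by 0.64 ± 0.20 (adjusted p = 0.0803). With the 10 arrays alone sNPF passed in UQCR-14 RNAi (0.77, adjusted p = 0.0141). It differed there by 1.09 in COX5B RNAi, where replicate 2 was the only array, and by 0.67 for the mean. With the term for the 4 replicate 3 arrays sNPF passed in UQCR-14 RNAi (0.73, adjusted p = 0.00141), in COX5B RNAi (1.22, 0.000606) and for the mean (0.71, 0.000328). The estimates moved widely when 1 array was left out: from -0.64 (without UQCR-14 RNAi replicate 1) to 1.64 (without control replicate 2) in UQCR-14 RNAi, from 0.43 (without COX5B RNAi replicate 1) to 2.25 (without its replicate 3) in COX5B RNAi, and from 0.29 (without UQCR-14 RNAi replicate 1) to 1.49 (without control replicate 2) for the mean. The sNPF difference in UQCR-14 RNAi was also below 0 without its replicate 2. In each of these fits the 2 arrays left in the group had equal weight, 1 of them with a low upper quartile. The ranges therefore cannot show how far sNPF depended on any other array.

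Pdf, which encodes the pigment-dispersing factor of the circadian clock neurons, read 1658, 1855 and 4388 in UQCR-14 RNAi, against 962, 1391 and 2612 in control. Replicates 1 and 2 lay above control replicates 1 and 2, and replicate 3 above control replicate 3, but the ranges overlapped (0.68 ± 0.23, adjusted p = 0.110). With a term for the 4 replicate 3 arrays that stood apart, the Pdf difference was 0.51 (adjusted p = 0.0153). In the weighted fit the Pdf difference turned to -0.11 without control replicate 1 and reached 1.31 without UQCR-14 RNAi replicate 1. In both cases replicate 3 of that group then had as much weight as replicate 2. The other RNAi groups were at or below control, with differences of -0.34, -0.11 and -0.13 for ND-75, COX5B and ATPsynCf6. The test of equality among the RNAi groups gave an adjusted p of 0.109 for Pdf over all 15 arrays and 0.0189 over the 10 arrays. Crz, the precursor of the stress-related peptide corazonin, and SIFa, that of SIFamide, had small estimates: Crz differed from control by -0.26 to 0.00 and SIFa by -0.09 to 0.04 in the 4 groups. Mip, the precursor of the myoinhibitory peptides, read 249, 291 and 208 in ND-75 RNAi against 386, 357 and 185 in control (-0.49 ± 0.19, adjusted p = 0.298).

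The insulin-like peptide genes did not pass in any group. Ilp2 and Ilp5 are made by the insulin-producing cells of the brain and promote growth and sugar uptake, and Ilp7 is made by neurons of the ventral ganglion. Ilp2 read 5010, 2747 and 3198 in ATPsynCf6 RNAi and 2655, 3091 and 11240 in ND-75 RNAi, against 2692, 2803 and 7236 in control. Its log2 differences were 0.10, 0.18, 0.46 and 0.30 for ND-75, UQCR-14, COX5B and ATPsynCf6, each with an interval that included 0. Those of Ilp5 lay between -0.11 and 0.38. Ilp7 read 111, 110 and 103 in ATPsynCf6 RNAi, against 56.5, 107 and 260 in control, so the ATPsynCf6 RNAi values lay inside the control range (0.44 ± 0.20, adjusted p = 0.231).

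Akh and Ptth belong to the axis between brain, ring gland and body. Akh encodes adipokinetic hormone, which mobilises energy stores and is made in the corpora cardiaca, the part of the ring gland attached to the brain, so the level of Akh per cell and the amount of that gland in a sample cannot be told apart. It read 437, 233 and 2534 in UQCR-14 RNAi, against 503, 526 and 1394 in control (-0.78 ± 0.35, adjusted p = 0.235), with the highest and the lowest of these 6 values both in UQCR-14 RNAi. The other groups differed by -0.16 to 0.70. Ptth encodes prothoracicotropic hormone, which brain neurons deliver to the prothoracic gland to start ecdysone synthesis. It read 469, 464 and 390 in ATPsynCf6 RNAi, against 550, 593 and 768 in control. All 3 ATPsynCf6 RNAi values lay below control, by less than the test could call (-0.37 ± 0.15, 95% interval -0.68 to -0.07, adjusted p = 0.148). With each array centred on its median, a scaling that left the median of all probe sets at -0.09, the difference was -0.43 (adjusted p = 0.0273). Beside this, the summed signal of 7 prothoracic gland and corpus allatum genes was 468, 170 and 193 in ATPsynCf6 RNAi, against 449, 1017 and 3344 in control. In that list, spok and sad, which encode ecdysone biosynthesis enzymes, fell by 1.68 (adjusted p = 0.00889) and 1.82 (adjusted p = 0.0228) in ATPsynCf6 RNAi. Each lay below the array median on at least 1 ATPsynCf6 RNAi array, so the sizes of these falls are uncertain. Both calls ended with the 10 arrays alone (adjusted p = 0.120 and 0.0982), without ATPsynCf6 RNAi replicate 2 (0.0665 and 0.109) or 3 (0.0868 and 0.154), and without control replicate 1 (0.871 for each) or 2 (0.797 for each). Their part in the Ptth values was not tested.

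Eh, CCAP and Burs encode eclosion hormone, crustacean cardioactive peptide and a bursicon subunit, which act in sequence at the moult. None passed. Burs read 197, 88.1 and 469 in ND-75 RNAi, against 199, 262 and 608 in control (-0.42 ± 0.30, adjusted p = 0.739), and Eh read 677, 478 and 1456 in ND-75 RNAi, against 733, 906 and 2334 in control (-0.35 ± 0.26, adjusted p = 0.760). For both genes ND-75 RNAi replicates 1 and 2 lay below both control replicates 1 and 2, and replicate 3 below control replicate 3, within overlapping ranges. With a term for the 4 replicate 3 arrays the differences were -0.83 for Burs (adjusted p = 0.0330) and -0.64 for Eh (0.0407). Both genes were lowest in ND-75 RNAi on replicate 2, the array with the actin ratio of 37.4. On replicate 1 Burs (197) was close to control replicate 1 (199). CCAP differed by -0.23 to 0.09 in the 4 groups.

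The genes of diuretic and antidiuretic hormones, Capa, Dh31, Dh44, ITP and Lk, gave differences of -0.46 to 0.33 and no call. Capa, whose peptides act on the Malpighian tubules, read 1425, 1304 and 1386 in ATPsynCf6 RNAi, against 1252, 1547 and 3648 in control (-0.02 ± 0.19, adjusted p = 0.965). Lk, the precursor of leucokinin, read 1390, 1105 and 992 in ATPsynCf6 RNAi, against 928, 1142 and 3823 in control (0.13 ± 0.26, adjusted p = 0.854). In both genes control replicate 3 was the highest of these 6 values, so the groups overlapped. ITP, the ion transport peptide gene, differed by -0.04 to 0.26. Dh31, whose peptide resembles vertebrate calcitonin, read 457, 378 and 709 in ND-75 RNAi, against 603, 603 and 1401 in control. ND-75 RNAi replicates 1 and 2 lay below all control arrays, and replicate 3 lay below control replicate 3 and above the other 2 (-0.46 ± 0.20, adjusted p = 0.384). With the term for the replicate 3 arrays Dh31 differed by -0.65 (adjusted p = 0.0148). Its lowest ND-75 RNAi value, 378, was on replicate 2, the array with the actin ratio of 37.4. The equality test over the RNAi groups gave an adjusted p of 0.227 for Dh31 over all arrays and 0.0393 over the 10 arrays, where its difference was -0.52 in ND-75 RNAi and 0.23 in ATPsynCf6 RNAi. Dh44, a relative of vertebrate corticotropin-releasing hormone, ranged from 4.39 on UQCR-14 RNAi replicate 3 to 464 on COX5B RNAi replicate 1, yet only from 291 to 412 on the 10 arrays.

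Of the gut-brain peptides, CCHa2 read 7821, 909 and 1090 in COX5B RNAi, against 510, 678 and 1211 in control. The value of 7821, on the array with the actin ratio of 70.1, was the highest of the 15, and the other COX5B RNAi arrays lay within the control range (0.75 ± 0.30, adjusted p = 0.752). CCHa2, which in the larva is also made by the fat body, differed by -0.05 to 0.32 in the other groups, and the dim CCHa1 (19.3 to 134 over the 15 arrays) by -0.07 to 0.22. NPF, the precursor of the feeding and reward peptide neuropeptide F, read 1219, 786 and 2730 in ND-75 RNAi, against 1237, 1517 and 6284 in control (-0.30 ± 0.29, adjusted p = 0.844). With the term for the replicate 3 arrays NPF differed by -0.73 (adjusted p = 0.00947). Its lowest ND-75 RNAi value, 786, was on replicate 2, the array with the actin ratio of 37.4. The muscle and modulatory peptides gave no call either. FMRFa, expressed by the Tv neurons of the thorax, read 912, 948 and 1187 in ND-75 RNAi, against 662, 717 and 1117 in control, with replicates 1 and 2 above control replicates 1 and 2 and below control replicate 3 (0.43 ± 0.17, adjusted p = 0.339). Ms differed by -0.11 to 0.20, and its signals over the 15 arrays, 4530 to 7263, had the smallest ratio of highest to lowest among the 28 genes (1.60). Proc, which encodes the muscle modulator proctolin, read 107, 109 and 269 in UQCR-14 RNAi, against 81.3, 32.4 and 109 in control, with overlap at the lower end (0.74 ± 0.39, adjusted p = 0.331).

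The precursor-like genes Nplp1, Nplp2 and Nplp4 did not pass in the weighted fit. Nplp4 read 107, 186 and 385 in UQCR-14 RNAi and 554, 272 and 350 in ATPsynCf6 RNAi, against 214, 384 and 436 in control. Its differences were -0.71 ± 0.32 (adjusted p = 0.241) and 0.41 ± 0.24 (adjusted p = 0.382), and the equality test gave an adjusted p of 0.0769, the lowest of the 28. With the term for the replicate 3 arrays Nplp4 differed by -1.20 in UQCR-14 RNAi (adjusted p = 0.00383), and its equality test gave 0.00238. With the 10 arrays alone the values were -0.94 (0.142) and 0.0778. Nplp2, which was below the array median on control replicate 1, read 69.7, 71.3 and 67.5 in ATPsynCf6 RNAi, against 24.5, 76.4 and 282 in control (0.56 ± 0.28, adjusted p = 0.287). Nplp1 was the steadiest gene over the 10 arrays, at 2141 to 2721.

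Much of the variation of the peptide genes lay between arrays. Over the 10 arrays the ratio of the highest to the lowest signal had a median of 1.92 for the 28 genes, against 1.74 for all probe sets tested, and ran from 1.27 for Nplp1 to 5.40 for Proc. The replicate 3 arrays of the ND-75, UQCR-14 and COX5B RNAi groups and of control stood apart in a shared way. Relative to the mean of replicates 1 and 2 of their own group, 17 of the 28 genes were higher on all 4 of these arrays (60.7%, against 28.3% of all probe sets tested), 5 were lower on all 4 (17.9%, against 26.9%) and 6 were mixed. Ilp2, for example, read 11240, 15010, 9430 and 7236 on these arrays in the order above, and 2655 to 5010 on the 10 arrays of higher upper quartile, against 618 on COX5B RNAi replicate 1. Akh, Burs, Capa, Eh, Lk and NPF were likewise higher on each of these 4 arrays by at least 1.33 on the log2 scale. The 5 lower genes were AstC, Dh44, ITP, Nplp1 and sNPF, so the 2 genes with the highest mean difference from control were among those that these arrays read low. The median over the 28 genes of replicate 3 against replicates 1 and 2 was 0.73, 1.30, 1.50 and -0.04 for ND-75, UQCR-14, COX5B and ATPsynCf6 RNAi and 0.78 for control, against -0.15, -0.36, 0.43, 0.01 and -0.21 over all probe sets tested.

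Marker sums of other tissues also differed on these arrays. The prothoracic gland and corpus allatum genes summed to 2488, 1297, 2357 and 3344 on the same replicate 3 arrays, and to 170 to 1017 on the 10 arrays. The 6 neuroblast markers summed to 14910, 3801, 12210 and 10460 on the same 4 arrays, and to 14590 to 19080 on the 10. The 7 glial markers summed to 23640, 34690, 24280 and 32380, against 17840 to 23620 on the 10. The 8 salivary gland genes summed to 7181, 17520, 10740 and 12450, against 792 to 10190 on the 10, with Sgs1, ng1 and ng2 below the array median on at least 1 array of every group. The 3 fat body genes summed to 2070, 7927, 1748 and 4097, against 471 to 6330 on the 10, the 8 muscle genes to 590 to 2906 and the 4 hemocyte genes to 714 to 1230 over all arrays. By the test at each gene's brightest probe set, 4 salivary gland genes, 1 glial and 1 muscle gene rose for UQCR-14, 1 glial gene rose and 2 ring gland genes fell for ATPsynCf6, and 1 hemocyte gene fell for ND-75. For the mean of the RNAi groups, 1 salivary gland gene rose and 1 hemocyte gene fell. A dimmer probe set of the muscle gene sls fell for UQCR-14 (-1.18 to -0.10 with 1 array left out in turn) and for the mean (-0.76 to 0.08). Of the neuroblast and fat body genes 0 passed by limma (at most 1 a comparison at an unadjusted p under 0.05). Their part in the peptide values was not tested. COX5B RNAi replicate 1 differed in its own way, and was the lowest array for 17 of the 28 genes and the highest for AstC, CCHa2, Dh44, Nplp1 and sNPF.

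**Figure D3:**
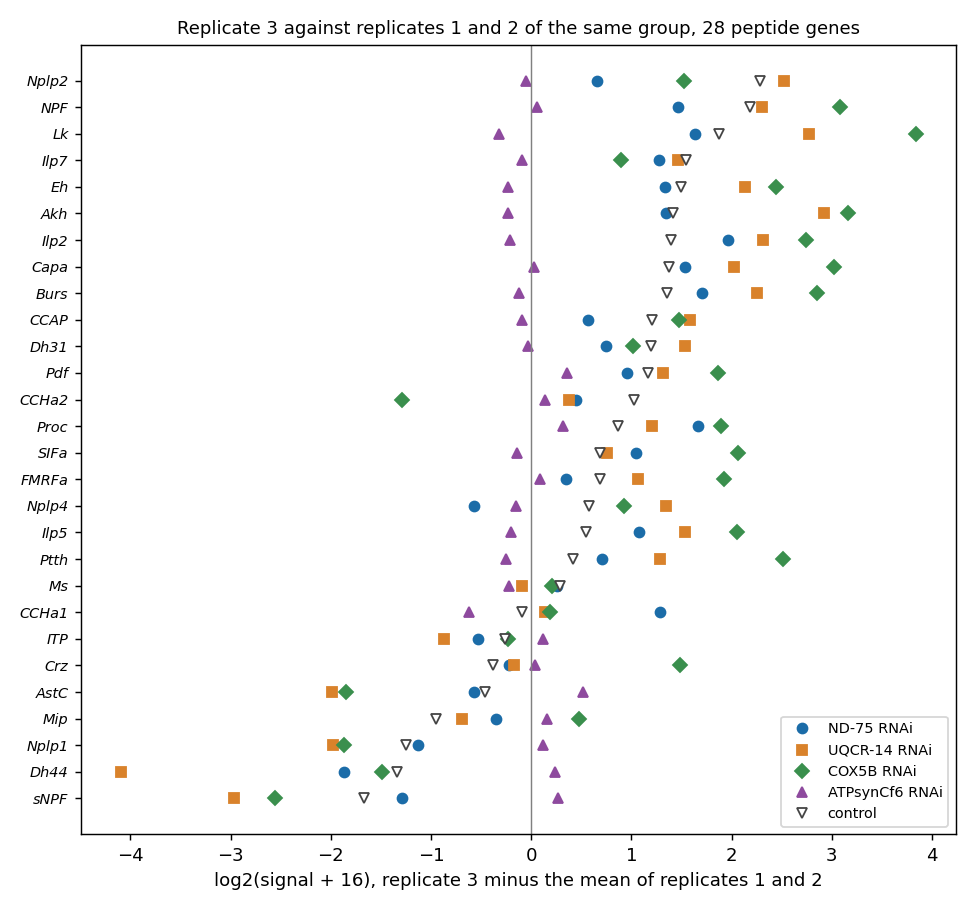
Log2(signal + 16) of the replicate 3 array minus the mean of replicates 1 and 2 of the same group (x axis, log2 units) for the 28 peptide genes, ordered by the control value; each point is 1 gene in 1 group. ATPsynCf6 RNAi stays near 0, while the other 4 groups move together, up for 17 genes and down for AstC, Dh44, ITP, Nplp1 and sNPF.

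Other genes of the peptide pathway were read for comparison. Of 15 further peptide genes 7 were measured above the filter, and 1 of them, Trissin, fell in 3 groups. Trissin encodes a cysteine-rich neuropeptide. It read 218, 179 and 356 in ND-75 RNAi, 229, 225 and 788 in UQCR-14 RNAi, 28.1, 285 and 518 in COX5B RNAi and 299, 206 and 181 in ATPsynCf6 RNAi, against 523, 660 and 1041 in control. Every RNAi array but UQCR-14 RNAi replicate 3 lay below all 3 control arrays. The log2 differences were -1.39 ± 0.24 (limma adjusted p = 0.00362), -1.27 ± 0.24 (0.00525) and -1.34 ± 0.18 (0.000139) in ND-75, UQCR-14 and ATPsynCf6 RNAi, and -0.86 in COX5B RNAi, which did not pass. These calls held with the 10 arrays alone (0.00528, 0.00830 and 0.00420). The call of Trissin ended in ND-75 RNAi without replicate 1 (-1.14, adjusted p = 0.733) or 2 (-1.03, 0.811) of that group and in UQCR-14 RNAi without replicate 1 (-0.44, 0.878) or 2 (-0.43, 0.849), and, among the arrays left out in turn, in ATPsynCf6 RNAi only without control replicate 1 (0.492) or 2 (0.591). ETH, the precursor of ecdysis triggering hormone, read 235, 259 and 231 in ATPsynCf6 RNAi, against 150, 184 and 143 in control, and rose by 0.53 (adjusted p = 0.0186), a call that ended with the 10 arrays alone (0.196) and without ATPsynCf6 RNAi replicate 2 (0.0863).

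Of 41 receptor genes 16 were measured above the filter. In the ND-75 group 0 rose and 1 fell, with UQCR-14 1 rose and 1 fell, with COX5B 0 passed by limma (2 at an unadjusted p under 0.05), and with ATPsynCf6 0 passed as higher and 2 as lower. Of all probe sets tested, 1.57%, 4.47%, 0.203% and 6.91% passed in that order. At an unadjusted p under 0.05 the receptor counts were 2, 3, 2 and 9 of 16, and 5 for the mean. The shares above are for the adjusted p and do not apply to these counts, which are not read as a result about the receptors. The receptor gene that fell in 3 groups was Lgr3, the neuronal receptor of the peptide that Ilp8 encodes. Lgr3 read 148, 146 and 80.8 in ND-75 RNAi, 117, 160 and 40.7 in UQCR-14 RNAi, 25.6, 156 and 81.4 in COX5B RNAi and 217, 235 and 154 in ATPsynCf6 RNAi, against 357, 373 and 194 in control. All arrays of the first 3 groups lay below control, and ATPsynCf6 RNAi overlapped it. The differences were -1.23 ± 0.23 in ND-75 RNAi (adjusted p = 0.00694), -1.24 ± 0.23 in UQCR-14 RNAi (0.00445), -1.34 ± 0.38 in COX5B RNAi, which did not pass (0.299), and -0.81 ± 0.18 in ATPsynCf6 RNAi (0.00778). With the 10 arrays alone Lgr3 passed in ND-75 RNAi (0.0195) and UQCR-14 RNAi (0.00836) and not in ATPsynCf6 RNAi (0.0528), and the last call also ended without ATPsynCf6 RNAi replicate 3 (0.0530). In the other groups they ended without ND-75 RNAi replicate 1 (-1.58, adjusted p = 0.385) or 2 (-1.57, 0.596), and without UQCR-14 RNAi replicate 1 (-1.90, 0.841) or 2 (-2.10, 0.773). The ligand's own probe set, Ilp8, was near background in every group.

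AstC-R1, a receptor of allatostatin C, read 11.7, 26.7 and 12.5 in ATPsynCf6 RNAi, against 38.3, 46.3 and 11.9 in control (limma adjusted p = 0.0246, lower). All 3 ATPsynCf6 RNAi values lay below the medians of their own arrays (32.5 to 35.3), and the probe set was above the median on only 4 of the 15 arrays, so no size is given for this difference. The groups overlapped through control replicate 3. The call ended with the 10 arrays alone (0.191) and without ATPsynCf6 RNAi replicate 1 (0.0880) or 3 (0.0873). The bursicon receptor gene rk rose by 0.75 in UQCR-14 RNAi (131, 177 and 94.3 against 96.5, 76.0 and 76.4 in control, adjusted p = 0.0264), a call that ended with the 10 arrays alone (0.0960) and without UQCR-14 RNAi replicate 1 (0.49, adjusted p = 0.843) or 2 (0.29, 0.856). The median difference of the 16 receptors was -0.32, -0.19, -0.35 and -0.43 for ND-75, UQCR-14, COX5B and ATPsynCf6, against -0.01, -0.02, -0.01 and 0.00 over all probe sets tested.

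The enzymes that cut and amidate the precursors, such as amon, Phm, Pal1 and Pal2, gave no call: 0 of 7 in every comparison, and 0 at an unadjusted p under 0.05. Of 7 genes of dense-core vesicle traffic, 2 rose in UQCR-14 RNAi and 1 fell in ATPsynCf6 RNAi. Rab2, which acts in making dense-core vesicles, read 3051, 2664 and 1120 in UQCR-14 RNAi, against 1394, 1451 and 1260 in control (0.95 ± 0.19, adjusted p = 0.00629), and the call ended without UQCR-14 RNAi replicate 1 (0.29, adjusted p = 0.891) or 2 (0.39, 0.832). Syt7, a calcium sensor of vesicle release, read 1927, 1737 and 1936 in ATPsynCf6 RNAi, below all control values of 2886, 2620 and 3772, and fell by 0.59 ± 0.12 (adjusted p = 0.00413). Cadps, needed for dense-core vesicle release, rose by 0.57 in UQCR-14 RNAi at its brighter probe set (adjusted p = 0.0418), while its other probe set fell by 0.59 in ATPsynCf6 RNAi (0.0390; 0.0971 with the 10 arrays alone), so the 2 probe sets disagreed in sign. The Cadps call in UQCR-14 RNAi ended without replicate 1 (0.10, adjusted p = 0.953) or 2 (0.06, 0.971) of that group, without ND-75 RNAi replicate 3 (0.0544) and without COX5B RNAi replicate 2 (0.0527). That in ATPsynCf6 RNAi ended without its replicate 1 (0.1501) or 2 (0.0893), without ND-75 RNAi replicate 2 (0.0573) and without UQCR-14 RNAi replicate 1 (0.0581) or 2 (0.0604). Neither of the Cadps calls, nor that of Rab2, was made on arrays that all lay beyond control.

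Of 6 measured genes that give peptidergic neurons their identity, transcription factors and the receptor gene wit, 0 passed at the brighter probe set in any comparison (1, 1, 0 and 1 at an unadjusted p under 0.05 in ND-75, UQCR-14, COX5B and ATPsynCf6 RNAi). The dimmer probe set of ap, which encodes Apterous, fell by 0.99 in ND-75 RNAi (adjusted p = 0.0118) and by 0.71 in ATPsynCf6 RNAi (0.00734; 0.153 with the 10 arrays alone), whereas the brighter one gave -0.05 and -0.10. The ND-75 RNAi call ended without replicate 1 (-0.9996, adjusted p = 0.648) or 2 (-0.68, 0.811) of that group. Of 7 genes of insulin signalling, among them InR, chico, Akt and foxo, 0 passed in any comparison (0, 1, 0 and 2 at an unadjusted p under 0.05 in the same order). InR, the insulin receptor gene, differed by -0.46 to -0.22. Each of the calls named for these other genes, like those of AstC, ended without control replicate 1 and without control replicate 2: of 44 calls of named genes 0 held in either case (adjusted p = 0.492 to 0.984), and 0 held without array weights. In these 2 fits control replicate 3 had the same weight as the other control array left, so they cannot show that a call rested on 1 control array. Without control replicate 3, 41 of the 44 calls held.

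**Figure D4:**
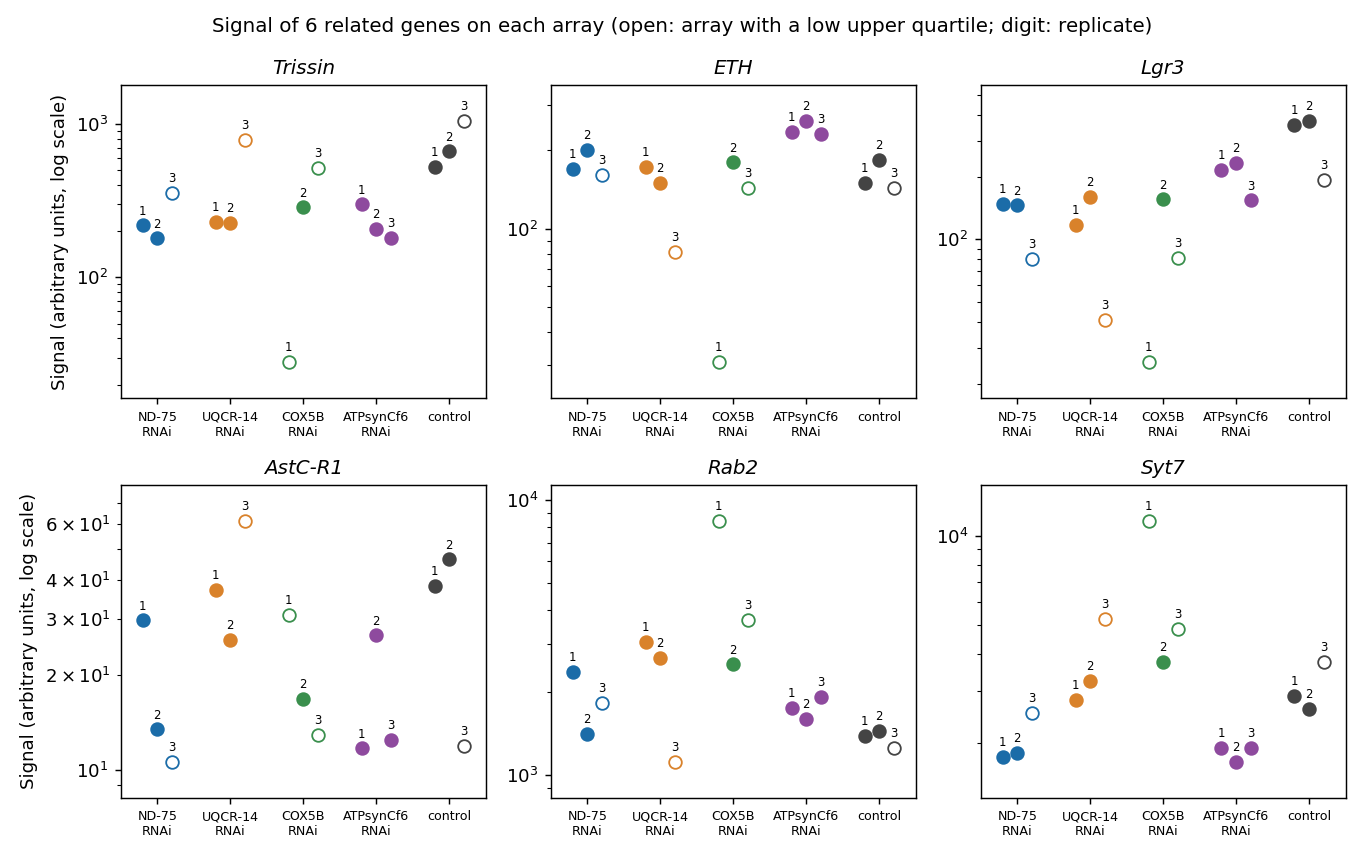
Signal (arbitrary units, log scale) of Trissin, ETH, Lgr3, AstC-R1, Rab2 and Syt7 on each of the 15 arrays, by group, with the replicate number above each point; open circles mark the 5 arrays with a low upper quartile and no mean or error is drawn. Trissin and Lgr3 lie below control on nearly every RNAi array, and Syt7 is lower in ATPsynCf6 RNAi (1737 to 1936) than in control (2620 to 3772).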

How the data were processed

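The deposited values are intensities on a linear scale, computed and scaled by the authors with MAS5, per the submitters' processing notes, where Affymetrix Expression Console and, for analysis, Transcriptome Analysis Console are named; parameters are not given in the sources used here. Per the labels' protocols, 10 ng of RNA was amplified and biotin-labelled. Of 18952 probe sets, 183 array controls were left out, and each array's trimmed mean was already equal, so the authors' scaling was kept. Signals were taken as log2(signal + 16), which understates changes of dim genes. The 10340 probe sets above the array median on at least 3 of 15 arrays were fitted together (limma 3.58.1, R 4.3.3: 5 group means, array weights, eBayes with trend, two-sided, Benjamini-Hochberg, threshold 0.05). The code was also run on simulated arrays with independent noise scaled by the fitted weights. These lacked the shared deviation of the replicate 3 arrays, so that run does not test the calls.

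Genes were matched by symbol or gene ID to the platform annotation and RefSeq names; 13646 of 18769 probe sets had 1 symbol, 402 several and 4721 none. The brightest probe set stands for a gene. The members and the lists (other peptides, receptors, processing enzymes, vesicle genes, identity factors, insulin signalling, cell type markers) were chosen with earlier results of these data known. Named were members that passed or whose arrays did not overlap control, and up to 4 passing genes per list and comparison; sNPF and Pdf in other comparisons were chosen after their values were seen. Alternatives changed weights, arrays, scaling, pseudocount, filter and blocks. Array number limits the precision.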

Additional observations from a re-analysis of the deposited data

Results flagged for a closer look

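Among the peptide genes, 0 of 28 differed between the 4 RNAi groups by the moderated F test of limma (4 at an unadjusted p under 0.05). Among the other genes read beside them, 5 did, each shown here with the adjusted p of that test, and no explanation was weighed. Syt7 (adjusted p = 0.00492) differed from control by -0.59, 0.16, 0.54 and -0.59 for ND-75, UQCR-14, COX5B and ATPsynCf6. The sulfakinin receptor gene CCKLR-17D3 (adjusted p = 0.0183) differed by 0.27, -0.69, 0.69 and 0.65 in the same order, at signals of 7.01 to 66.2. The dimmer probe set of cpx, which encodes the synaptic protein complexin (adjusted p = 0.0257), and the salivary glue genes Sgs4 (adjusted p = 0.0160) and Sgs5 (adjusted p = 0.0352), which mark tissue from outside the nervous system, were the others.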

How the results depend on the processing

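The number of peptide genes called depended on the weights, the arrays and the scaling. Beyond the weighted fit, shares of all probe sets called are given above only for 3 settings. These are the 10 arrays, median centring in UQCR-14 RNAi and quantile normalization in COX5B RNAi. The other counts in this section therefore cannot be set against the array and are not read as a result about the peptide genes. Without array weights, and with the replicate block without weights, 0 genes passed in UQCR-14 RNAi, ATPsynCf6 RNAi or the mean. With the 10 arrays alone 2 passed for UQCR-14 and 1 for ATPsynCf6, and COX5B RNAi held only 1 array. With 9 arrays, an alternative chosen after seeing the data that also left out ND-75 RNAi replicate 2, 3 passed for UQCR-14. ND-75 RNAi and COX5B RNAi then each held 1 array. With weights estimated gene by gene, also chosen afterwards, 3 passed in UQCR-14 RNAi and 2 for equality. A term for the 4 replicate 3 arrays gave 4 genes in ND-75 RNAi (Burs, Dh31, Eh and NPF, lower in each case), 6 for UQCR-14, 2 for COX5B, 3 for the mean and 10 for equality. Quantile normalization gave 6 (4 higher) for UQCR-14, 8 (4 higher) for COX5B, 4 for the mean and 6 for equality. Median centring gave 11, of which 8 lower, in UQCR-14 RNAi, 2 in ATPsynCf6 RNAi and 1 for equality, with the median of all probe sets at -0.24 for UQCR-14, -0.21 for COX5B and -0.14 for the mean. A pseudocount of 64 gave 2 for the mean, and no filter gave 0 in UQCR-14 RNAi. Leaving out 1 array at a time gave 0 to 0 in ND-75 RNAi and COX5B RNAi, 0 to 3 in UQCR-14 RNAi, 0 to 1 in ATPsynCf6 RNAi, 0 to 2 for the mean and 0 to 2 for equality.

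Same-numbered arrays correlated in their deviations at 0.167 to 0.852 (18 pairs without ATPsynCf6 RNAi) and at -0.362 to 0.149 (12 pairs with it), so the numbers were not taken as pairs; the replicate block with weights gave 2 genes for ND-75 (Dh31 and NPF), 7 for UQCR-14 (Akh, AstC, Eh, Nplp4, Pdf, Proc and sNPF), 2 for COX5B (AstC and sNPF), 2 for the mean and 4 for equality. AstC kept its sign under all alternatives run in ATPsynCf6 RNAi (0.78 to 1.40) and passed in 23 of 27. For the mean its call ended without ND-75 RNAi replicate 1 or 2, UQCR-14 RNAi replicate 1 or 2, COX5B RNAi replicate 2 or 3, and control replicate 1 or 2. Over 50 results of named genes and 1350 alternatives, 902 kept sign and side of the threshold, 412 lost the call, 29 gained it and 7 turned sign: Syn in UQCR-14 RNAi without its replicate 1 (-0.09) or 2 (range with 1 array left out -0.25 to 1.81), nrv2 there without replicate 2 (-0.15 to 0.67) sls for the mean without control replicate 1 (-0.76 to 0.0801), sNPF in UQCR-14 RNAi without its replicate 1 or 2 (-0.64 to 1.64) and Pdf there without control replicate 1 (-0.11 to 1.31). In each of these 7 fits the array left out was replicate 1 or 2 of a group whose replicate 3 had low weight. The 2 arrays left in that group then had equal weight. The causes were not tested. COX5B RNAi, with 1 array of full weight, had the widest intervals of the 4 groups.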
